A study of Homo sapiens with 6 samples.

Results

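The genes described are 10 adaptors, kinases and receptors of immune signalling: TYROBP, HCST, FCER1G, TREM1, SYK, BTK, LCP2, LAT2, FYB1 and SKAP2. Their members are the 29 probe sets that the array's annotation assigns to 1 of these genes and to no other, out of 54613 probe sets tested, and 1 further probe set shared between SKAP2 and another gene was left out. The gene list was chosen from earlier results of the same comparison, CA against DMSO, so the members' differences are given as a description and no p-value is printed for them. The members were measured in MOLM-14, a permanent human line grown from acute myeloid leukaemia cells, with an MLL-AF9 rearrangement. The 3 CA samples had been kept for 24 h in 10 nM cortistatin A, a marine natural product that blocks the Mediator-associated kinases CDK8 and CDK19, and the 3 DMSO samples for 24 h in the solvent alone. All 6 were wells of this line under the same culture conditions, each on 1 Affymetrix U133 Plus array, and the comparison asks how transcript levels respond to loss of that kinase activity.

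An ITAM is a short cytoplasmic motif with a pair of tyrosines. Many activating receptors of myeloid and natural killer cells, TREM1 among them, have almost no cytoplasmic tail and pair in the membrane with a small adaptor that carries the ITAM, TYROBP (DAP12) or FCER1G (the Fc receptor gamma chain). Src-family kinases phosphorylate the ITAM, the kinase SYK docks on it, and SYK then phosphorylates scaffolds such as LCP2 (SLP-76) and LAT2 (NTAL) on which BTK, phospholipase C gamma and VAV proteins assemble. HCST (DAP10) pairs with receptors such as KLRK1 but carries a motif that binds PI3-kinase and GRB2 in place of an ITAM. FYB1 (ADAP) and SKAP2 (SKAP-HOM) form a complex that links these scaffolds to integrins and the actin cytoskeleton.

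HCST and TYROBP are next to each other on chromosome 19 and are transcribed toward each other. In assembly GRCh38.p14 their annotated 3′ ends are 25 bases apart, and their promoter windows, at the outer ends of the pair, are 5667 bases apart. The promoter windows of these genes and of FYB1 are shown because these 3 members had the lowest CA values relative to DMSO. Each window is the RefSeq sequence from 250 bases before to 50 bases after an annotated start, 5′ to 3′ on the gene's own strand in GRCh38.p14. The TYROBP window is chr19:35908246-35908545 on the minus strand and the HCST window chr19:35902279-35902578 on the plus strand. FYB1 has windows at chr5:39270600-39270899 and chr5:39219514-39219813, both on the minus strand. Capitals mark matches, on either strand, to the letters TGTGGT (RUNX) or GAGGAAG (PU.1 and other ETS factors).
TYROBP: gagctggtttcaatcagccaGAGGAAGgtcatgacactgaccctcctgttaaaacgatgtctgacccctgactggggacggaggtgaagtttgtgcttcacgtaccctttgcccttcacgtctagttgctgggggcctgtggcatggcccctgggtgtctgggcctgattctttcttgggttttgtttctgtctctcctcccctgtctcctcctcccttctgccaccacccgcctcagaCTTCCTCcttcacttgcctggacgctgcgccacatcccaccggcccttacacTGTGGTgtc
HCST: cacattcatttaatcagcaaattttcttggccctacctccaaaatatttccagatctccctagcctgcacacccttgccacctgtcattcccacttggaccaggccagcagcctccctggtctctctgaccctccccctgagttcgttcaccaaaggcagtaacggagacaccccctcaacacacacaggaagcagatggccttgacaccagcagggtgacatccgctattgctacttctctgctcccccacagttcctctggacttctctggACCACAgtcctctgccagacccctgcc
FYB1 window 1: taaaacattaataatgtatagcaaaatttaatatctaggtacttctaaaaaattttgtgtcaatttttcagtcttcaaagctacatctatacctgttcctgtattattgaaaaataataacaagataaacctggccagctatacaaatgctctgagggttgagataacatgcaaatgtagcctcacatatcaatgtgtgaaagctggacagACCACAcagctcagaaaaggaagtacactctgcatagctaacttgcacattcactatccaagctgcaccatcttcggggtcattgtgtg
FYB1 window 2: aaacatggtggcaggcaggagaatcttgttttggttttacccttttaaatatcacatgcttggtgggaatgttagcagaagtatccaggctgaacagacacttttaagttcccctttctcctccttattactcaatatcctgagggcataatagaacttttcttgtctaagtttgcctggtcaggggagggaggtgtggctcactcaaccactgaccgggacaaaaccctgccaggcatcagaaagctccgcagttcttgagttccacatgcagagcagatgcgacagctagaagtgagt

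The TYROBP window held 1 RUNX match and 2 PU.1 matches, and HCST and the first FYB1 window held 1 RUNX match each. The second FYB1 window held no match. Windows were also searched for TTCNNNGAA (GAS, the STAT site) and TTGCNNAA (C/EBP), which none of these 4 windows contained. Of the 35116 promoter windows of all genes, 13.1% held the RUNX letters, 13.6% the PU.1 letters, 7.66% the GAS letters and 10.5% the C/EBP letters, and no matches overlapped in the members' windows. Windows were found for 9 of the 10 genes, with none for LAT2. The FCER1G window held 1 RUNX match. The TREM1 window held 2 RUNX matches and 1 each for PU.1, GAS and C/EBP. LCP2 held 2 PU.1 matches and 1 GAS match, and the second of 3 SYK windows 2 PU.1 matches and 1 C/EBP match. The first BTK window held 2 PU.1 matches and the second 1. The SKAP2 window and the other SYK windows held none. A match is a description of the letters only.

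The deposited values are log2 intensities made by RMA, which corrects background, quantile-normalizes the arrays and summarises each probe set. Array medians were 5.59 to 5.62 and lower quartiles 4.11 to 4.14. Probe sets correlated across arrays at 0.998 within groups and at 0.996 to 0.997 between groups. Of 9 measured markers of myeloid leukaemia cells, 9 were above the lower quartile. So were 7 of 8 T and NK cell markers and 3 of 3 B cell markers, so this bar does not separate the cell types. LYZ and FLT3 were bright (13.33 ± 0.05 and 11.72 ± 0.01 in CA, 13.38 ± 0.10 and 11.69 ± 0.02 in DMSO, SD, n = 3 each). CD14 (4.71 in CA, 4.36 in DMSO) and SPI1 (5.59 in CA, 5.51 in DMSO) were much dimmer. ITGAM (-0.45) and CSF1R (-0.39) were called lower and MEIS1 (0.25) higher. The mean log2 of 8 T and NK cell markers was 5.67 to 5.73 in CA and 5.44 to 5.58 in DMSO. Among these, NCAM1 was bright, at 10.70 in CA and 10.30 in DMSO, and NCAM1 (0.41) and GNLY (0.77) were called higher. The mean log2 of 3 B cell markers was 5.23 to 5.35 in CA and 5.27 to 5.31 in DMSO, with no call. In RNA from whole wells, fewer cells of a type and less RNA per cell cannot be told apart. RNA integrity was read from GAPDH control probe sets, whose signal at the 3′ end minus that at the 5′ end was 0.441 to 0.533 in CA and 0.349 to 0.398 in DMSO, and the part of this in the results was not tested.

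Among the members the adaptors TYROBP, HCST and FYB1 were lower in CA, SKAP2 was slightly lower, and the differences of the kinases SYK and BTK and the scaffolds LCP2 and LAT2 ran from -0.23 to 0.10 over all their probe sets. A probe set was called at an adjusted p under 0.05 from limma fitted across all 54613 probe sets. Of the 29 member probe sets, 6 were called lower and 0 higher, where 2.01% of all probe sets were called lower and 3.0% higher. The 3 CA values lay below the 3 DMSO values in 13 member probe sets and above them in 1, where this held for 13.1% and 12.1% of all probe sets. With 1 value per gene, that of the probe set with the highest mean, 4 of the 10 genes were called lower and 0 higher. Of the 19775 genes tested, 4.49% were lower and 6.64% higher. The 4 were TYROBP, HCST, FYB1 and SKAP2. This gene-level call of SKAP2 was lost with each of the 6 arrays left out in turn, which left 3 genes lower. The replicate block lost it too. The median difference of the 10 genes was -0.09 and that of all genes -0.003. Since the list was drawn up from this contrast, nothing is read from these counts.

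**Figure D1:**
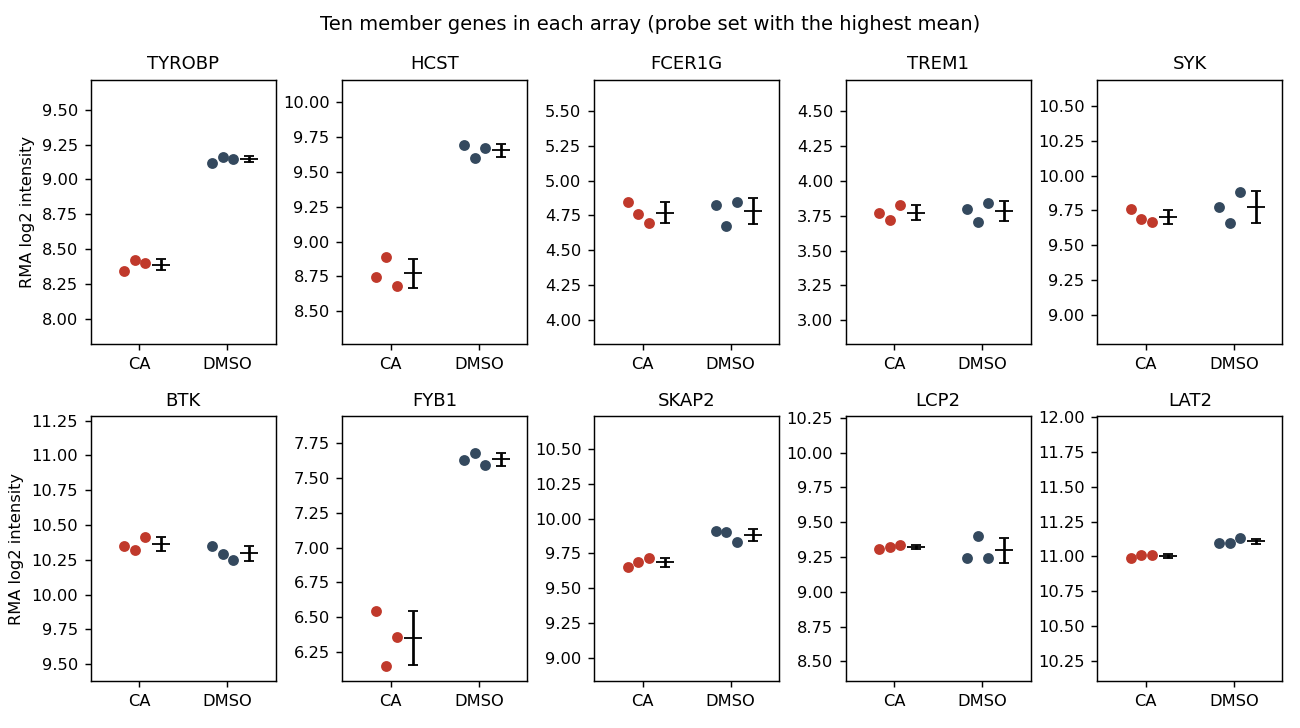
RMA log2 intensity in each array for the 10 genes, each on its probe set with the highest mean. Red points are the 3 CA arrays, dark points the 3 DMSO arrays, bars the mean with the SD, and every panel spans the same range of log2 units around its own centre. TYROBP, HCST and FYB1 show CA values well below DMSO, while in FCER1G, TREM1, SYK, BTK and LCP2 the groups overlap.

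TYROBP, the ITAM adaptor of TREM and other myeloid receptors, had log2 intensities of 8.34, 8.42 and 8.40 in CA and of 9.12, 9.16 and 9.15 in DMSO. The CA arrays were all lower, and the arrays of each group lay close together. Its difference was -0.76 (SE 0.05), 1.69-fold lower in CA, on the only probe set for the gene. HCST had 8.75, 8.89 and 8.68 in CA and 9.69, 9.60 and 9.67 in DMSO. Again no CA array reached any DMSO array, and the difference was -0.88 (SE 0.07), 1.85-fold lower in CA, also on a single probe set.

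The neighbours thus moved by similar amounts, with 95% confidence intervals of -1.04 to -0.73 for HCST and -0.87 to -0.65 for TYROBP. The log2 value of HCST minus that of TYROBP on the same array was 0.401, 0.468 and 0.280 in CA and 0.571, 0.442 and 0.522 in DMSO. Its level depends on the probes of both genes, so only its change can be read, which was -0.13, with overlapping groups. Each of the 6 other measured protein-coding genes beside the pair was uncalled in the fit over genes. NFKBID, an inhibitor of NF-kB signalling on the HCST side, was at -0.15 (limma adjusted p = 0.145), and LRFN3, on the TYROBP side, at 0.17 (adjusted p = 0.334). Farther out, APLP1 was at -0.01, SDHAF1 at -0.08, SYNE4 at -0.05 and ALKBH6 at 0.10. In NFKBID and SDHAF1 the 3 CA values lay below the 3 DMSO values, as in 13.1% of all probe sets. The groups overlapped in LRFN3, APLP1, SYNE4 and ALKBH6. Whether the pair differed from these 6 genes was not tested.

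**Figure D2:**
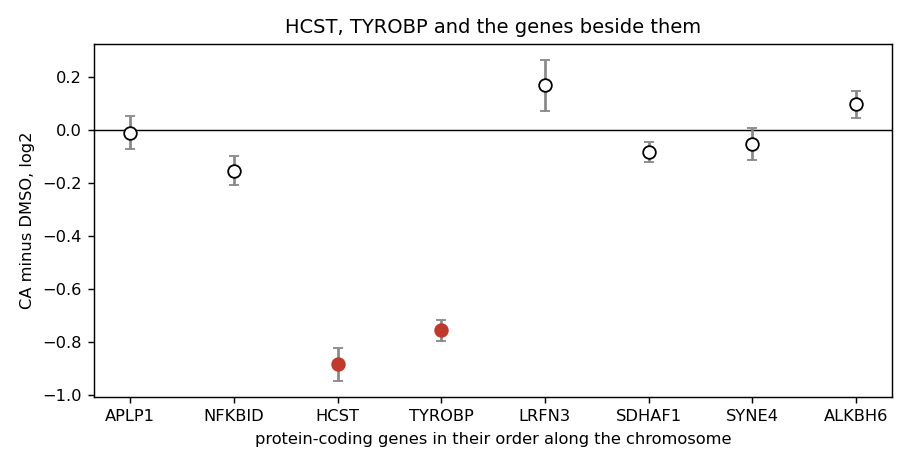
CA minus DMSO difference in log2 units, with SE, for HCST, TYROBP and the protein-coding genes beside them, in chromosome order, from the fit over genes. Filled red points are called. HCST and TYROBP lie at -0.88 and -0.76 and the 6 other genes between -0.15 and 0.17.

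Genes with values like those of TYROBP and HCST over the 6 arrays were sought among 10989 other genes whose log2 values averaged 6 or more. Likeness was the Euclidean distance after centring each gene on its DMSO mean. This distance is small only for genes with a similar CA minus DMSO difference, the comparison from which the members were chosen. The search therefore cannot tell a shared pattern from a difference of equal size, and no shared regulation is read from it. The nearest to TYROBP were C1orf54 (distance 0.067, difference -0.78), the cystine transporter SLC7A11 (0.068, -0.73) and TNFSF13B, the cytokine BAFF (0.098, -0.75). The nearest to HCST were IPCEF1 (0.166, -0.89), TMEM170B (0.175, -0.84) and AZU1, an azurophil granule protein (0.206, -0.90).

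FCER1G, the ITAM adaptor of Fc receptors, was dim. Its brighter probe set, 204232_at, read 4.85, 4.76 and 4.70 in CA and 4.82, 4.67 and 4.85 in DMSO, under the array medians. These groups overlapped, at a difference of -0.01 (95% confidence interval -0.17 to 0.15). The other, 1554899_s_at, lay under the lower quartile in both groups, with CA values of 3.65 to 3.85 above DMSO values of 3.42 to 3.58. It was uncalled at 0.24 (SE 0.07), and it is the member probe set whose CA values all exceeded DMSO. TREM1, a receptor that signals through TYROBP and amplifies inflammatory responses, was under the lower quartile too, at 3.77, 3.72 and 3.83 in CA and 3.79, 3.71 and 3.85 in DMSO. At such signals a change in the transcript may be missed.

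SYK, the kinase that docks on phosphorylated ITAMs, was bright and nearly level on its best probe set. That probe set, 207540_s_at, read 9.76, 9.69 and 9.66 in CA and 9.78, 9.66 and 9.88 in DMSO, with overlapping groups and a difference of -0.07 (95% confidence interval -0.23 to 0.10). On its 3 other probe sets CA lay below DMSO without overlap, at -0.10, -0.19 and -0.23, and none was called. With the 4 probe sets of SYK averaged the difference was -0.15, also uncalled. BTK, the Tec-family kinase that activates phospholipase C gamma, had 10.35, 10.32 and 10.42 in CA and 10.35, 10.29 and 10.25 in DMSO. Its groups overlapped, with a difference of 0.07 (95% confidence interval -0.06 to 0.19).

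The scaffolds moved little. LCP2, which gathers VAV1 and phospholipase C gamma after SYK acts, had 9.31, 9.32 and 9.34 in CA and 9.25, 9.40 and 9.24 in DMSO on its brightest probe set, 205269_at. The groups overlapped there and on each of its 5 other probe sets, and the 6 differences ranged from -0.12 to 0.10. LAT2, the membrane scaffold of myeloid and B cells, had 10.99, 11.01 and 11.01 in CA and 11.10, 11.10 and 11.13 in DMSO on 221581_s_at. CA was below DMSO there by a small step, -0.11 (SE 0.04), which was uncalled. Its dimmer probe set, 211768_at, pointed the other way at 0.05, with overlapping groups.

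FYB1, which ties LCP2 signalling to integrin activation, had the largest difference of any member. Its brightest probe set, 227266_s_at, read 6.55, 6.15 and 6.36 in CA and 7.63, 7.68 and 7.59 in DMSO, a difference of -1.28 (SE 0.10), 2.43-fold lower in CA. The CA arrays were more spread out than the DMSO arrays, and no values overlapped. Probe set 211795_s_at gave 6.51, 6.33 and 6.42 in CA and 7.50, 7.43 and 7.68 in DMSO (difference -1.11, SE 0.08). Probe set 211794_at gave 6.02, 6.20 and 6.18 in CA and 6.89, 6.95 and 6.81 in DMSO (-0.75, SE 0.07). The size therefore depended on the probe set, and with the 5 probe sets of FYB1 averaged it was -0.71. The remaining probe sets were dim and uncalled, 205285_s_at at -0.28 (SE 0.13) and 224148_at at -0.13 (SE 0.08), each with overlapping groups.

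SKAP2, the partner of FYB1 in myeloid cells, was lower in CA by a small and even amount on its 4 brighter probe sets. Its brightest, 204362_at, read 9.65, 9.69 and 9.72 in CA and 9.91, 9.90 and 9.83 in DMSO (difference -0.20, SE 0.05). The called probe set, 204361_s_at, read 7.89, 7.87 and 7.80 in CA and 8.05, 8.13 and 8.09 in DMSO (-0.23, SE 0.05). On 225639_at and 216899_s_at the differences were -0.27 and -0.28, also without overlap, but uncalled. The dimmer 217035_at and 241331_at were at 0.03 and -0.01, with overlapping groups. The call on 204361_s_at was lost with each of the 6 arrays left out in turn, with differences of -0.25 to -0.21, and with arrays centred on their medians, so that SKAP2 stood near the threshold. The called probe sets of TYROBP, HCST and FYB1 were called with each array left out.

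**Figure D3:**
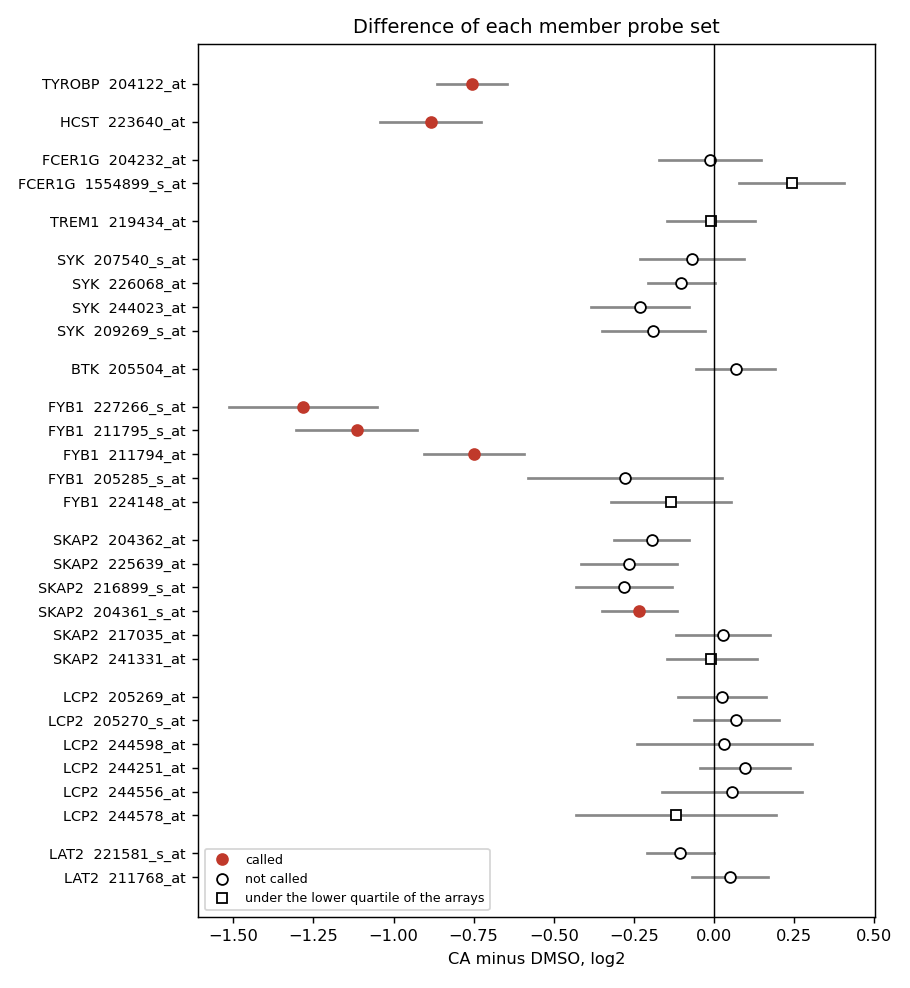
CA minus DMSO difference in log2 units for the 29 member probe sets, with 95% confidence intervals, grouped by gene. Filled red points are called, and squares lie under the lower quartile of the arrays in both groups. The largest differences are those of 3 FYB1 probe sets, HCST and TYROBP, and 4 of the 6 SKAP2 probe sets lie between -0.28 and -0.20.

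Other genes of the pathway were taken as 4 lists by role, 1 value per gene. Calls here are from limma over the 19775 genes with Benjamini-Hochberg adjustment, which called 4.49% of all genes lower and 6.64% higher. The lists were drawn up with earlier results of these data known, so nothing is read from the counts of calls. Of 28 measured receptors that pair with these adaptors or carry an ITAM-like motif, 2 were lower and 0 higher, with a median of -0.05. Of these 28, 5 were under the lower quartile in both groups and others under the array medians, where a change may be missed. LILRA2, an activating leukocyte immunoglobulin-like receptor that signals through FCER1G, had 8.36, 8.40 and 8.44 in CA and 9.30, 9.26 and 9.17 in DMSO. It fell by 0.84 on the log2 scale (SE 0.05, limma adjusted p = 1.81e-04), and its 4 probe sets were all called lower. With these averaged the difference was -0.56 (adjusted p = 0.00158). TREM2, a lipid receptor that signals through TYROBP, had 6.37, 6.29 and 6.20 in CA and 6.77, 6.55 and 6.83 in DMSO (-0.43, SE 0.08, limma adjusted p = 0.0235). TREM2 kept its call only with DMSO replicate 2 or CA replicate 1 left out and had an adjusted p of up to 0.0806 without another array. Without DMSO replicate 1 or 3, or CA replicate 2 or 3, 1 receptor was lower.

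Of 10 measured Src, Tec and SYK family kinases other than the members, 2 were higher and 1 lower, with a median of -0.02. Of all genes, 6.64% were higher and 4.49% lower. FGR, a Src-family kinase of myeloid cells, had 7.80, 7.81 and 7.78 in CA and 7.11, 6.91 and 6.82 in DMSO. It rose by 0.85 (SE 0.08, limma adjusted p = 0.00109). TEC, a relative of BTK, had 7.16, 7.10 and 7.06 in CA and 6.70, 6.69 and 6.60 in DMSO and rose by 0.44 (adjusted p = 0.00275). FYN, a Src-family kinase best known from lymphocytes, fell by 0.48 (adjusted p = 0.0271) on 1 of its 5 probe sets. It was at -0.13 with these averaged (adjusted p = 0.289), and its call was lost without DMSO replicate 1 or 3 or CA replicate 1 or 2, which left 0 kinases lower. LYN, a kinase that phosphorylates ITAMs in myeloid cells, was at -0.12 (adjusted p = 0.121).

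Effectors and other adaptors moved in both directions. Of 34 measured, 8 were lower and 4 higher, against 4.49% and 6.64% of all genes, with a median of -0.04. PRAM1, an adaptor of myeloid cells related to FYB1, had 6.46, 6.70 and 6.58 in CA and 7.29, 7.36 and 7.21 in DMSO and fell by 0.71 (SE 0.07, limma adjusted p = 0.00194). PIK3CB, a catalytic subunit of PI3-kinase, fell by 0.42 (adjusted p = 0.00185). VAV1, an exchange factor that binds LCP2, fell by 0.39 (adjusted p = 0.0102) and lost its call with the replicate block (limma adjusted p = 0.0563). PAG1, a membrane adaptor that recruits the Src inhibitor CSK, fell by 0.33 (adjusted p = 0.00574). BLNK, the B cell counterpart of LCP2, had 8.50, 8.65 and 8.64 in CA and 7.72, 7.79 and 7.73 in DMSO and rose by 0.85 (SE 0.05, adjusted p = 2.40e-04). The others that rose were MALT1, of the CARD9 signalling complex (0.22, adjusted p = 0.0360), the PI3-kinase regulator PIK3R5 (0.20, adjusted p = 0.0370) and VAV3 (0.19, adjusted p = 0.0438). In the fit over probe sets, no probe set of VAV3, PIK3R5 or MALT1 was called higher. VAV3 lost its call with each array left out, PIK3R5 with each except CA replicate 1 and MALT1 with each except DMSO replicate 2. Over these 6 fits 4 to 6 genes were lower (4 without CA replicate 1 or 2, 5 without DMSO replicate 1, 2 or 3), and 1 or 2 higher. With a gene's probe sets averaged, MALT1 was at 0.14 (adjusted p = 0.0862), PIK3R5 at 0.09 (0.200) and VAV3 at 0.13 (0.199). With _x_at and _s_at probe sets left out, their adjusted p was 0.0519 to 0.0646. PLCG2, the phospholipase that BTK activates, was at 0.05 (adjusted p = 0.460).

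Of 25 measured inhibitors of the pathway, 6 were higher and 3 lower, against 6.64% and 4.49% of all genes, with a median of 0.00. UBASH3B, a phosphatase that removes phosphate from SYK and ZAP70, had 9.96, 9.98 and 9.94 in CA and 9.17, 9.06 and 9.09 in DMSO and rose by 0.85 (SE 0.04, limma adjusted p = 1.05e-04). PTPN6, the phosphatase SHP-1, had 9.30, 9.32 and 9.40 in CA and 8.99, 9.07 and 9.01 in DMSO and rose by 0.32 (adjusted p = 0.00700). INPP5D, the lipid phosphatase SHIP1, rose by 0.22 (adjusted p = 0.0286), and the inhibitory receptor CD300A by 0.22 (adjusted p = 0.0418). With _x_at and _s_at probe sets left out, which can match several genes or transcripts, CD300A was at -0.03 (adjusted p = 0.943) and INPP5D at 0.20 (adjusted p = 0.241). PTPN22, a phosphatase of Src-family kinases, fell by 0.36 (adjusted p = 0.0126), the adaptor DOK1 by 0.21 (adjusted p = 0.0228) and the ubiquitin ligase CBL by 0.18 (adjusted p = 0.0235). In the fit over probe sets, no probe set of INPP5D or CD300A was called higher and no probe set of DOK1 or CBL lower. The calls of CD300A, DOK1 and CBL were lost with each array left out. That of INPP5D was lost with each except DMSO replicate 1, and that of PTPN22 without DMSO replicate 3. With each gene's probe sets averaged, CD300A was at 0.13 (adjusted p = 0.349), CBL at -0.07 (0.551) and PTPN22 at -0.26 (0.0502). Without any 1 array other than DMSO replicate 1, 2 inhibitors were higher, and 4 were without it. In the same 6 fits 0 inhibitors were lower without DMSO replicate 3, 2 without CA replicate 1 and 1 otherwise.

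**Figure D4:**
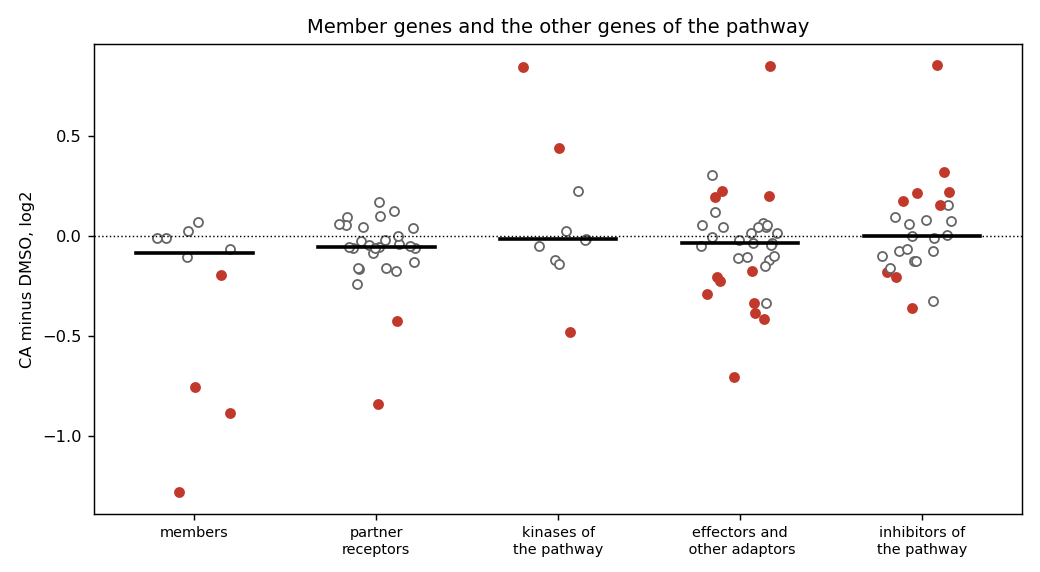
CA minus DMSO difference in log2 units of the 10 members and of the measured genes of 4 lists, 1 value per gene. Filled red points are called and black lines are medians. FGR, BLNK and UBASH3B lie near 0.85, opposite to LILRA2, PRAM1, TYROBP, HCST and FYB1, while most receptors lie close to 0. Of the 28 measured receptors, 5 were under the lower quartile of the arrays in both groups, where a change may be missed.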

How the data were processed

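RNA of 6 MOLM-14 samples (3 CA, 3 DMSO) was hybridised to 1 array each. Per the submitters' processing notes, the authors deposited log2 intensities from RMA in the affy package (versions not given in the sources used here). RMA shrinks large differences. Arrays have no depth, and precision is limited by their number. The labels name 2 RNA kits without saying which sample had which, so the kit was not tested.

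Of 54675 probe sets, 62 control probe sets were left out. The platform annotation gave 1 symbol to 41091 of the rest and several to 1801, and 11721 were unnamed here. Symbols were updated by Entrez number through a GRCh38.p14 gene table (41037 matched). Listed genes without a probe set of their own were not analysed here. The groups were compared with limma 3.58.1 under R 4.3.3 (CA minus DMSO, lmFit and eBayes, 2-sided, no covariates or level filter), with Benjamini-Hochberg adjustment over all probe sets, or over genes represented by their brightest probe set. The procedure was tested on simulated data. Nothing in the labels says that wells came from separate cultures, so the spread may be technical.

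The members, the pathway lists and the tests were chosen with earlier results of these data known. The text names every member and, of each list, up to 4 called rises and 4 called falls of largest size. LYN, PLCG2, NFKBID and the other genes beside HCST and TYROBP were named for their role or place, and the marker genes after their values were seen. Protein motifs were not searched here. Alternatives concerned scaling, a level filter, moderation, array weights, a replicate block, probe set choice and leaving out each array.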

Additional observations from a re-analysis of the deposited data

How the results depend on the processing

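The calls of TYROBP, HCST and 3 FYB1 probe sets were made in every alternative that measured them. With each array left out in turn, 5 member probe sets (3 genes) were lower and 0 higher, and over all probe sets 830 to 902 were higher and 396 to 432 lower, in place of 1639 and 1097. The counts in these fits were 1 to 3 receptors lower, 0 or 1 kinases lower, 1 or 2 effectors higher and 4 to 6 lower, and 2 to 4 inhibitors higher and 0 to 2 lower. Same-numbered samples of the groups did not deviate together (correlations of -0.005, 0.032 and -0.026 over probe sets), and 0 of the 6 arrays correlated best with its own number, so the numbers were not taken as pairs. With the replicate block, 768 probe sets were higher and 341 lower, and 1 receptor was lower, 1 effector higher and 3 lower, 2 inhibitors higher and 0 lower, while the SKAP2 call was lost. A filter at a mean log2 of at least 5 drops dim probe sets, part of the members among them. Under it 2473 probe sets were higher and 2030 lower, with 10 member probe sets lower. With an intensity trend and robust moderation, these were 3224, 2849 and 11, and 2 kinases and 5 inhibitors were lower. With 1 value per gene, both settings called 5 member genes lower, LAT2 among them. Over probe sets, both settings added SKAP2 probe sets and SYK 244023_at, and the second also LAT2 221581_s_at. With _x_at and _s_at probe sets left out, which drops part of the members, 868 were higher, 570 lower and 3 member probe sets lower, with 1 kinase higher and 0 lower, 0 effectors higher and 1 inhibitor higher. FGR, VAV1, BLNK, PTPN6 and DOK1, among others, have only such probe sets. They were not measured in that setting, so they left these counts without losing a call. CD300A turned to -0.027. With a gene's probe sets averaged, 0 kinases were lower, 1 effector higher and 1 inhibitor lower. Of the 26 called genes of the lists, 10 were called with each array left out and 6 lost the call each time. Alternatives for 1 value per member gene, other than the mean of its probe sets, were added after seeing the data. Beyond genes that a setting did not measure, the cause of these shifts was not tested. Dim probe sets, among them those of TREM1 and FCER1G, limit what can be seen.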
